A study of Mus musculus with 36 samples.

Results

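The collagen IV chains are coded by 6 genes, Col4a1 to Col4a6, taken by symbol from a table of 49568 gene symbols, and all 6 passed the filter on low counts that left 18628 genes for testing. They were selected on the count levels of vehicle-treated mice, where Col4a6 was far lower in 1 of the mouse strains, so that strain contrast is described here and not tested. Each of the 36 libraries was made from polyadenylated RNA of the ligated left carotid artery of a mouse, collected on day 14. Ligation halts blood flow, and the wall of the vessel remodels. Mice were of the inbred strains 129X1/SvJ (129X1) or C57BL/6J (B6, given as C57BL/6 in the strain label). They received Sac/val, the combination of the neprilysin inhibitor sacubitril with the angiotensin receptor blocker valsartan, at 60 mg/kg/day, valsartan alone (Val) at 27 mg/kg/day, or vehicle at 2 mL/kg/day. The therapeutic regimen ran for 7 days from day 7 after ligation, and the prophylactic regimen ran for 16 days from 2 days before it. Strain, treatment and regimen were fully crossed into 12 groups of 3 libraries. All groups were ligated, and no uninjured artery was analysed here. The sex and age of the mice are not given in the sources used here.

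Collagen IV is the network-forming collagen of basement membranes, the thin matrix sheets under endothelium and around each smooth muscle cell. Its chains assemble into trimers of fixed composition: the Col4a1 and Col4a2 chains form the network of nearly all basement membranes, the Col4a3, Col4a4 and Col4a5 chains that of the kidney glomerulus and a few other sites, and the Col4a5 and Col4a6 chains a network known from smooth muscle and some epithelia. The genes lie in head-to-head pairs, transcribed away from each other from neighbouring starts on opposite strands, an arrangement in which both genes of a pair can share regulatory sequence. In blood vessels the chains come mainly from endothelial and smooth muscle cells.

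In GRCm38 with the GENCODE M21 annotation, Col4a1 (ENSMUSG00000031502.11) spans chr8:11198423-11312826 on the minus strand, and Col4a2 (ENSMUSG00000031503.13) spans chr8:11312805-11449287 on the plus strand. Their starts are 21 bases apart and their first exons overlap by 22 bases. Col4a4 (ENSMUSG00000067158.9) spans chr1:82448423-82586849 on the minus strand, and Col4a3 (ENSMUSG00000079465.8) spans chr1:82586921-82722059 on the plus strand, with starts 72 bases apart. Col4a6 (ENSMUSG00000031273.16) spans chrX:141165403-141474076 on the minus strand, and Col4a5 (ENSMUSG00000031274.16) spans chrX:141475385-141689234 on the plus strand. The starts of this X-linked pair are 1309 bases apart, the widest of the 3 gaps. Exons of the antisense gene C430014B12Rik share 563 bases with Col4a3, but that gene had 4 to 27 counts per library, and whether the counting used strand is not given in the sources used here.

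RefSeq promoter windows of GRCm38.p6, from 250 bases before to 50 bases after a start, were found for 5 of the 6 chains, all but Col4a3. They come from a single reference genome, not from the mice studied, so they show no sequence difference between the strains. The windows of the pair that came apart between strains (Col4a6 and Col4a5) and of the pair that stayed together (Col4a2 and Col4a1) are printed 5′ to 3′ on the strand of each gene, with capitals on every GC box match (the letters GGGCGG) and every CCAAT box match (named by its letters) on either strand.
Col4a6 (chrX:141474027-141474326, minus strand): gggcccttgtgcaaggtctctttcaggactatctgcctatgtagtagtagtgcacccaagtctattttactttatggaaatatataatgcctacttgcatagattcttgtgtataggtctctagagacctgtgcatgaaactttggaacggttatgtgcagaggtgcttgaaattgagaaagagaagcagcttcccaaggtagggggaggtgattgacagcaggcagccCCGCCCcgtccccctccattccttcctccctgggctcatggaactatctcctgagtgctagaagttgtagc
Col4a5 (chrX:141475169-141475468, plus strand): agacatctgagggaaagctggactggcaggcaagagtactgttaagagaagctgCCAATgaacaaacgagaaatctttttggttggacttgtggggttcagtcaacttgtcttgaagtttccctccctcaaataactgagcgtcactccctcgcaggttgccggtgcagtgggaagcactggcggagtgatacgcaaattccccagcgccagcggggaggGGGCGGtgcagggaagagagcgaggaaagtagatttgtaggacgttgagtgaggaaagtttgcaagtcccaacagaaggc
Col4a2 (chr8:11312555-11312854, plus strand): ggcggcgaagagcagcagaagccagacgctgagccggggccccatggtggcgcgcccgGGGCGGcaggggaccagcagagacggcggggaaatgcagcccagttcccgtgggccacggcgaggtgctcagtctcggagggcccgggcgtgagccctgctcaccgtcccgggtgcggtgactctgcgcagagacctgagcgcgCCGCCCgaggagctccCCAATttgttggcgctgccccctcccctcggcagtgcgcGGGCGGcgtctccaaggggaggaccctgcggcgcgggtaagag
Col4a1 (chr8:11312777-11313076, minus strand): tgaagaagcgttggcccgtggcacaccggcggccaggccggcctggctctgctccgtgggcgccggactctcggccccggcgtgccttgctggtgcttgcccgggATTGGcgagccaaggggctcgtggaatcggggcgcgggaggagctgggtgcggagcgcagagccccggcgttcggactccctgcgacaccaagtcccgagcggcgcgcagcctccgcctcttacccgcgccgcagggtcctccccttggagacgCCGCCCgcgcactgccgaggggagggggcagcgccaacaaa

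The Col4a1 and Col4a2 windows overlap in the genome by 78 bases and are rich in guanine and cytosine (GC), at 74.0% and 73.7%, above 95.2% and 94.9% of the 32851 windows in the RefSeq table. The Col4a6 window holds 48.3% GC, below the median window (52.7%), and 3 CpG dinucleotides, against 37 in Col4a1, 33 in Col4a2, 14 in Col4a4, 11 in Col4a5 and 7 in the median window. The GC box occurred 3 times in the Col4a2 window and once each in those of Col4a1, Col4a5 and Col4a6. The Col4a1 match lies in the 78 shared bases and is the same site as 1 of the Col4a2 matches. The CCAAT box occurred once each in Col4a1, Col4a2 and Col4a5, and neither motif occurred in Col4a4. Of all windows, 35.7% held the GC box and 37.4% the CCAAT box. The TATA box (searched as TATAAA), held by 13.6% of windows, and the CArG box, the element bound by serum response factor and held by 1.63%, were in none of the 5. All searches covered both strands, and a match is a string of letters, not a measured binding site.

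Total counts ran from 18962081 to 28967579 per library. Libraries of the same group differed in how much neighbouring tissue they held. Levels are given as CPM, counts scaled to a common library total with TMM factors. Rag1, a gene of developing lymphocytes, was at 10 CPM or more in 16 libraries, 12 from 129X1 and 4 from B6. Myh11, the smooth muscle myosin that marks the arterial media, was present in every library, at 40.5 to 673 CPM (median 275 CPM). In whole tissue, fewer cells of a type and less RNA per cell cannot be told apart.

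Per base of exon, the chains of the general basement membrane network were the most abundant. Over 36 libraries Col4a1 averaged 102 ± 36.5 and Col4a2 85.2 ± 31.3 RPKM (CPM per kilobase of exon, mean ± SD), followed by Col4a5 at 11.4 ± 5.54, Col4a6 at 2.49 ± 2.72, Col4a4 at 1.05 ± 0.503 and Col4a3 at 0.462 ± 0.238 RPKM. The order of the 3 scarcer chains was not the same in both strains. In 129X1 arteries Col4a6 was the lowest chain, at 0.239 ± 0.129 RPKM, under Col4a3 at 0.389 ± 0.163 and Col4a4 at 0.967 ± 0.383 RPKM (n = 18). In B6 arteries Col4a6 was next below Col4a5, at 4.74 ± 2.12 RPKM, above Col4a4 at 1.14 ± 0.599 and Col4a3 at 0.535 ± 0.281 RPKM (n = 18). Library ranges of neighbours in these orders overlapped in both strains, except that the ranges of Col4a2 and Col4a5 were separate in both and those of Col4a5 and Col4a4 in 129X1.

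**Figure D1:**
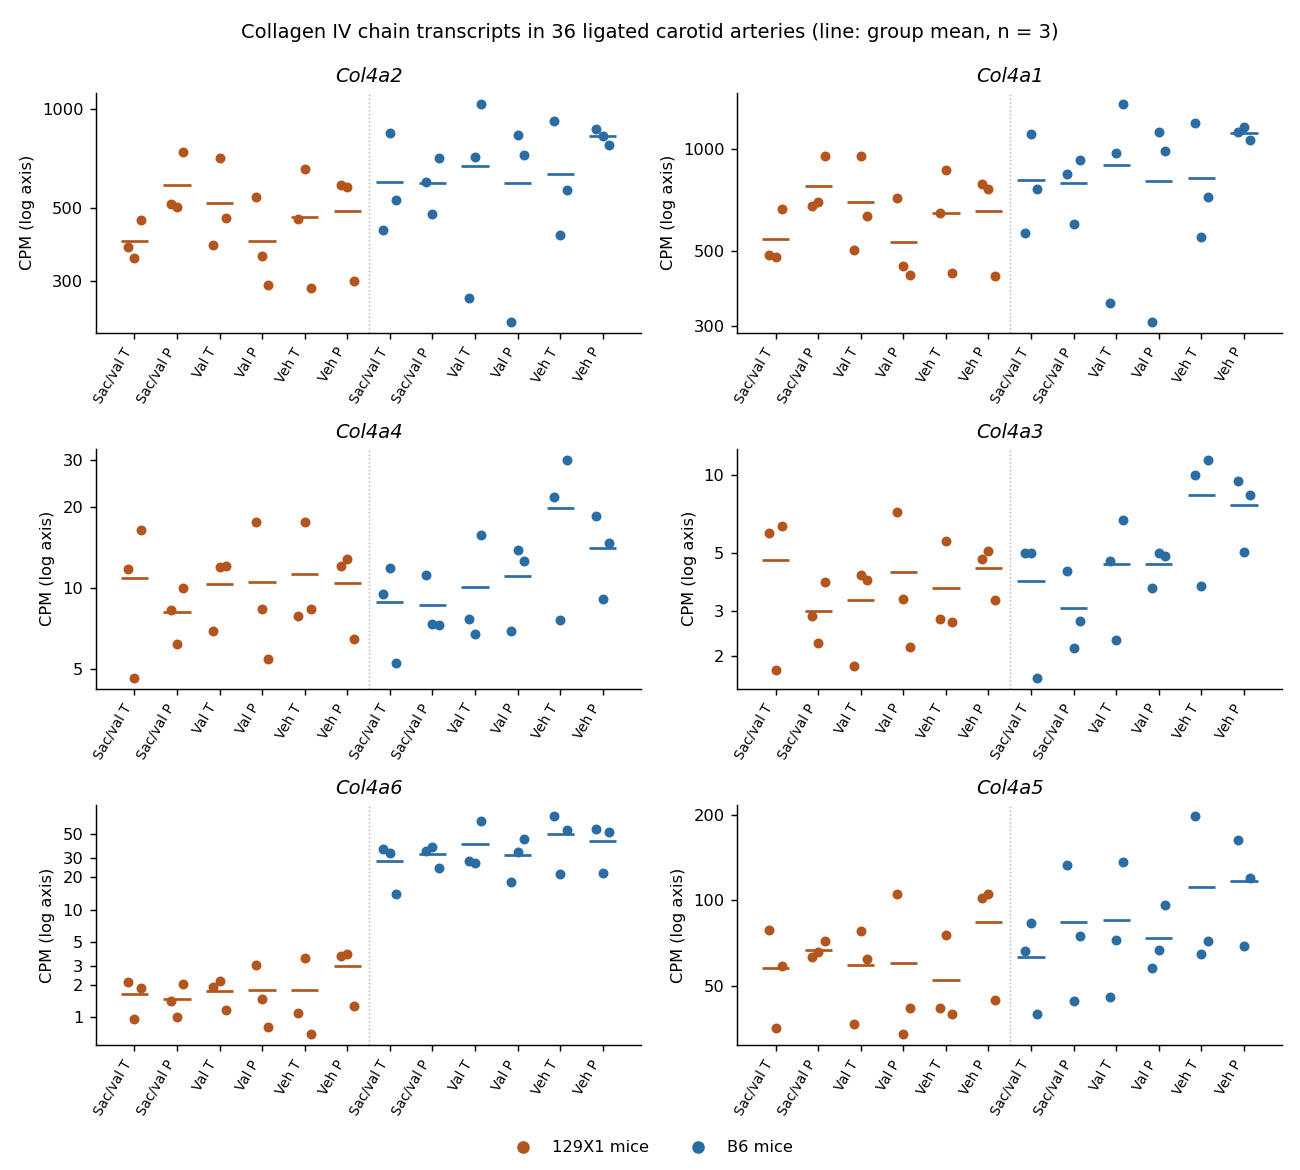
CPM (log axis) of each collagen IV chain in every library, with 129X1 groups left (orange) and B6 groups right (blue); T is the therapeutic and P the prophylactic regimen, points are libraries and lines are group means of 3. In the Col4a6 panel the 18 libraries of 129X1 lie between 0.696 and 3.89 CPM, below all 18 of B6 at 13.9 to 73.9 CPM, while in the other panels the strains overlap.

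Under vehicle, the contrast that chose the genes, Col4a6 was at 0.696, 2.43 and 3.89 CPM (lowest, median, highest) in 6 libraries of 129X1, against 21.2, 53.3 and 73.9 CPM in 6 of B6. The log2 difference, 129X1 minus B6, was -4.34 (SE 0.47), and those of the other chains were -0.55 (SE 0.31) for Col4a1, -0.60 (SE 0.31) for Col4a2, -0.99 (SE 0.37) for Col4a3, -0.62 (SE 0.36) for Col4a4 and -0.79 (SE 0.36) for Col4a5. Libraries of both strains were separate for Col4a6 and overlapped for the other chains, where 8.09% of all tested genes had separate libraries, and 13.5% of genes were called by edgeR in this contrast, 7.02% higher and 6.52% lower in 129X1. These values describe the choice and support nothing.

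The 24 libraries of drug-treated mice were outside that vehicle contrast. The chains were chosen with earlier results of these data known, so the tests below are not independent support for the choice. In drug-treated mice the strain difference of Col4a6 was 19.8-fold, against 20.2-fold under vehicle. Col4a6 was at 0.802, 1.67 and 3.04 CPM (lowest, median, highest) in 12 libraries of 129X1, against 13.9, 34.0 and 66.1 CPM in 12 of B6. Every 129X1 library lay below every B6 library. In counts, 129X1 libraries held 17 to 64 reads of Col4a6 and B6 libraries 388 to 1534, so the transcript was detected in each 129X1 library at a depth where counting error is not small. Reads of both strains were counted on the same GRCm38 build, and whether Col4a6 reads of both strains align to it equally well was not tested. The log2 difference was -4.31 (SE 0.33), which is 19.8-fold lower in 129X1 (95% interval 12.3 to 31.9, adjusted p = 1.04e-10, edgeR quasi-likelihood test with Benjamini-Hochberg adjustment over 18628 genes). It held in each drug group: mean Col4a6 was 1.65 CPM in 129X1 and 28.1 CPM in B6 under therapeutic Sac/val, 1.49 and 32.5 CPM under prophylactic Sac/val, 1.76 and 40.4 CPM under therapeutic Val, and 1.77 and 32.4 CPM under prophylactic Val, with 129X1 first each time (n = 3 per group). The strain difference under drug did not change detectably with regimen (difference of differences 0.02, 95% interval -1.19 to 1.22, edgeR adjusted p = 1.00).

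Col4a6 was the 1 chain of 6 that passed in this comparison, in which 21.5% of tested genes passed, 10.8% higher and 10.7% lower in 129X1. Its libraries were separate between strains, as were those of 2.44% of tested genes. By log2 difference it was the 68th lowest of all 18628 genes and the 3rd lowest of 571 tested X-linked genes.

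The partner of Col4a6 and the other 4 chains did not pass. Col4a5 was at 33.9, 62.8 and 105 CPM (lowest, median, highest) in 129X1, against 39.9, 69.8 and 136.98 CPM in B6 (log2 difference -0.32, 95% interval -0.84 to 0.20, edgeR adjusted p = 0.423). Col4a1, one of the chains of the general network, was at 424, 651 and 958 CPM in 129X1, against 309, 888 and 1365 CPM in B6 (-0.39, 95% interval -0.84 to 0.05, edgeR adjusted p = 0.214). Libraries of both strains overlapped for Col4a5 and Col4a1, with the highest libraries of both genes in B6. Col4a2 was at 291, 461 and 738 CPM in 129X1, against 225, 652 and 1036 CPM in B6 (-0.40, 95% interval -0.85 to 0.06, edgeR adjusted p = 0.218). Col4a3 was at 1.77, 3.58 and 7.17 CPM in 129X1, against 1.65, 4.47 and 6.68 CPM in B6 (-0.08, 95% interval -0.62 to 0.46, edgeR adjusted p = 0.885). Col4a4 was at 4.61, 9.14 and 17.7 CPM in 129X1, against 5.24, 8.55 and 15.8 CPM in B6 (0.04, 95% interval -0.48 to 0.57, edgeR adjusted p = 0.943). No interval of these 5 chains reached below -0.85, while that of Col4a6 ran from -4.99 to -3.63.

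Markers of other cell types varied widely among the same drug-treated libraries. Of the 6 thymocyte markers (Rag1, Rag2, Dntt, Ptcra, Cd8b1 and Themis) none passed, and their summed level was 0.761 to 1178 CPM (median 218 CPM) in 129X1, against 1.04 to 3759 CPM (median 8.51 CPM) in B6. The 6 epithelial markers, of which none passed, summed to 12.4 to 558 CPM (median 136.9 CPM) in 129X1, against 9.43 to 1026 CPM (median 17.5 CPM) in B6. The 8 markers of contractile smooth muscle, of which none passed, summed to 428 to 3067 CPM (median 1400 CPM) in 129X1, against 1023 to 3737 CPM (median 1898 CPM) in B6, with a median log2 difference of -0.24. In several lists some markers passed, where 21.5% of all genes did. Of 8 Schwann cell markers 4 were lower in 129X1 (median -0.55), of 6 chondrocyte markers 2 were lower (median -1.12), of 8 endothelial markers 1 was lower (median -0.19), and of 8 adipocyte markers 2 were higher (median 0.53). Of the 6 macrophage markers 4 passed, all lower in 129X1, with sums of 270 to 786 CPM (median 493 CPM) in 129X1, against 202 to 1287 CPM (median 1066 CPM) in B6. The 8 skeletal muscle markers summed to 33.2 to 34542 CPM (median 6236 CPM) in 129X1, against 58.5 to 20739 CPM (median 891 CPM) in B6. No marker of these lists was at 0 in all libraries. The Col4a6 difference was -4.02 without the libraries at 10 CPM of Rag1 or more. That fit used 3 of the 4 combinations of drug and regimen. It kept 1 library of 129X1 in each Sac/val group, 2 under prophylactic Val and 0 under therapeutic Val. With the smooth muscle score as covariate the Col4a6 difference was -4.05 (SE 0.18, edgeR adjusted p = 1.29e-15). With scores of skeletal muscle, adipocytes and Schwann cells as covariates it was -3.78 (SE 0.33, edgeR adjusted p = 7.94e-09), while Col4a1 and Col4a2, which did not pass, took the opposite sign (0.16 and 0.20).

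**Figure D2:**
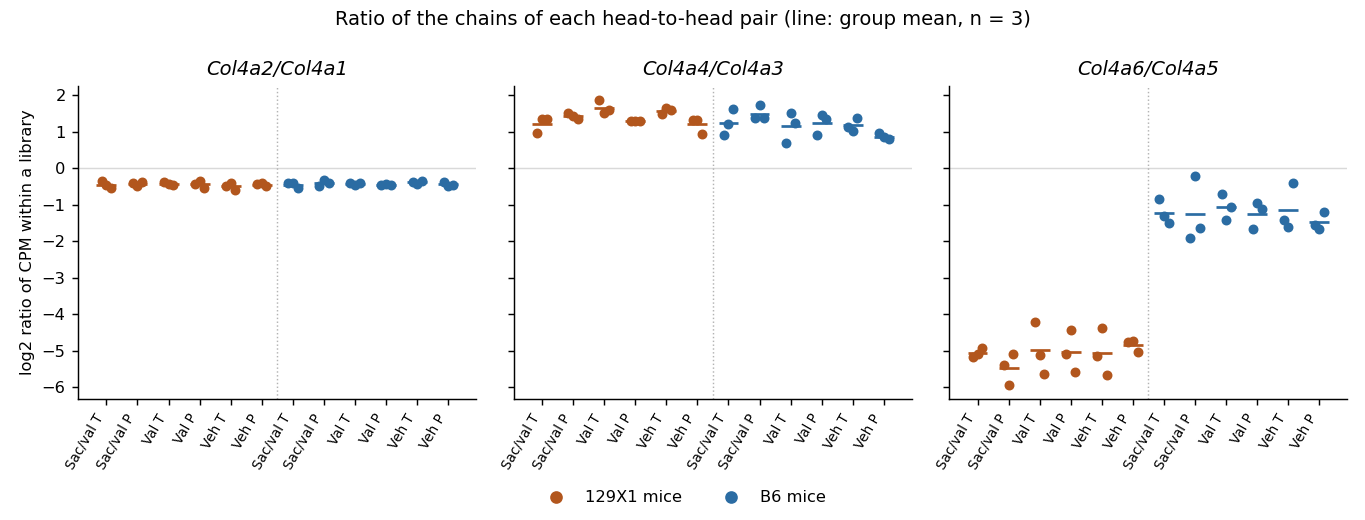
Log2 ratio of CPM of the 2 chains of each head-to-head pair within a library (not per length), with 129X1 groups left (orange) and B6 groups right (blue); T is therapeutic, P prophylactic, and lines are means of 3. The Col4a6/Col4a5 ratio of 129X1 libraries, at -5.93 to -4.20, lies below that of B6 libraries, at -1.91 to -0.21, and the other ratios overlap between strains.

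A ratio within a library sets a gene against the partner beside it, so total depth and scaling cancel. In drug-treated mice the log2 Col4a6/Col4a5 ratio was -5.93, -5.10 and -4.20 (lowest, median, highest) in 129X1, against -1.91, -1.21 and -0.21 in B6. Ratios of the strains did not overlap and differed by -3.94 (SE 0.21, adjusted p = 3.32e-14, limma over 1582 head-to-head gene pairs, n = 12 per strain). Only 1 of the 1582 pairs had a ratio difference of larger size. The log2 Col4a2/Col4a1 ratio was -0.55, -0.43 and -0.35 in 129X1, against -0.53, -0.42 and -0.33 in B6, a difference of -0.00 (95% interval -0.11 to 0.10, limma adjusted p = 0.971). The log2 Col4a4/Col4a3 ratio was 0.97, 1.36 and 1.86 in 129X1, against 0.71, 1.36 and 1.72 in B6, a difference of 0.12 (95% interval -0.08 to 0.32, limma adjusted p = 0.414). Thus 1 of the 3 collagen IV pairs passed, where 27.4% of all head-to-head pairs did. Under vehicle, as a description, the same differences were -3.64 (SE 0.29) for Col4a6/Col4a5, -0.06 (SE 0.07) for Col4a2/Col4a1 and 0.36 (SE 0.14) for Col4a4/Col4a3, and 15.1% of pairs were called.

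**Figure D3:**
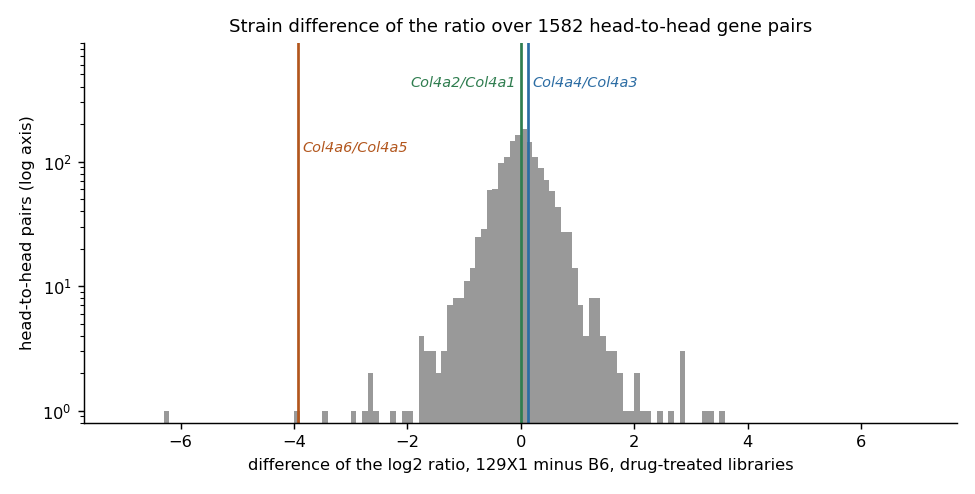
Number of head-to-head gene pairs (log axis) by the strain difference of their log2 ratio, 129X1 minus B6, in drug-treated libraries, for all 1582 pairs in bins of 0.1; coloured lines mark the 3 collagen IV pairs. Col4a6/Col4a5 lies at -3.94, far in the lower tail, and Col4a2/Col4a1 and Col4a4/Col4a3 lie near 0.

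The pairs also differed in how closely their genes followed each other from library to library. Col4a1 and Col4a2 kept nearly constant proportions: Col4a2 had 66.1 to 79.6% as many counts as Col4a1 in the 36 libraries. After the mean of each of the 12 groups was removed, their log2 CPM correlated at r = 0.993, the highest of 1582 head-to-head pairs, whose median r was 0.29. Col4a3 and Col4a4 correlated at r = 0.943 (19th of the pairs), and Col4a5 and Col4a6 at r = 0.740 (239th). Within 18 libraries of 129X1 these values were 0.987, 0.974 and 0.771 in the same order of pairs, and within 18 of B6 they were 0.997, 0.912 and 0.720. These are descriptions over libraries that share tissue content and scaling, and they include no test.

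Likeness to other genes was judged by the same r over 36 libraries, among 12498 genes at a mean of 5 CPM or more, and each gene of the chromosome 8 and chromosome 1 pairs had its partner as closest match (Col4a3 itself lies under that mean). After Col4a2, Col4a1 was most like Plod1, a collagen lysyl hydroxylase (r = 0.974), and Acvrl1, an endothelial receptor of the BMP family (r = 0.970). After Col4a1, Col4a2 was most like Acvrl1 (r = 0.972) and Hspg2, the basement membrane proteoglycan perlecan (r = 0.966). The X-linked chains had other closest matches. Col4a6 was most like Shroom3, an actin-binding regulator of cell shape (r = 0.920), Mylk, the myosin light chain kinase (r = 0.887), and Smtn, the smooth muscle protein smoothelin (r = 0.887). Col4a5 was most like Fbln5, a fibulin of elastic fibres (r = 0.925), Pdgfd, a platelet-derived growth factor (r = 0.897), and Htra1, a secreted serine protease (r = 0.895). Among all 18628 tested genes, Col4a5 ranked 215th among matches of Col4a6, and Col4a6 ranked 267th among those of Col4a5. Col4a3 was most like Col4a4 (r = 0.943), Col4a6 (r = 0.788) and Nkd1, an intracellular Wnt antagonist (r = 0.781). Col4a4 was, after Col4a3, most like Nkd1 (r = 0.873), Shroom3 (r = 0.865) and 2610203C20Rik (r = 0.856).
The 8 smooth muscle markers include Mylk and Smtn, so their score is not separate from the matches of Col4a6 just named. Their mean log2 level correlated with Col4a6 at r = 0.85, again after removal of group means. With the other chains it correlated at 0.66 (Col4a1), 0.71 (Col4a2), 0.66 (Col4a3), 0.71 (Col4a4) and 0.72 (Col4a5). The genes that Col4a6 followed within groups had smaller strain differences: Shroom3 differed by -0.46, Mylk by -0.30 and Smtn by -0.54 between 129X1 and B6 under drug.

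The genes next to Col4a6 and Col4a5 on the X chromosome showed no such strain difference. Atg4a, an autophagy protease whose end lies 1.13 kb beyond the end of Col4a6, differed by 0.02 (SE 0.08, edgeR adjusted p = 0.880), and Psmd10, a proteasome assembly factor, by -0.04 (SE 0.06, adjusted p = 0.757). On the other side, Nxt2, an RNA export factor, differed by 0.05 (SE 0.09, adjusted p = 0.769) and Kcne1l, a potassium channel subunit at a mean of 0.563 CPM, by -0.02 (SE 0.41, adjusted p = 0.991). Within 5000 kb on either side of the Col4a6 start, 37 genes were tested, and 2 passed, both lower in 129X1. These were Col4a6 and Tmem164, a membrane protein gene, at -0.44 (edgeR adjusted p = 0.00481). Without the Rag1-rich libraries, a fit with only 1 library in some groups, Tmem164 was at -0.42. With the scores of skeletal muscle, adipocytes and Schwann cells it was at -0.28 and no longer passed (edgeR adjusted p = 0.0751). Over the X chromosome 38 genes were higher and 28 lower of 571 tested, or 11.6%.
Beside the other pairs, 2 of 8 neighbours passed, a share near the 21.5% of all tested genes. Rab20, a small GTPase 4.23 kb beyond Col4a2, was lower in 129X1 (-0.81, SE 0.23, edgeR adjusted p = 0.0107), and Mff, a mitochondrial fission factor 2.83 kb beyond Col4a3, was higher (0.25, SE 0.06, edgeR adjusted p = 0.00243). Without the Rag1-rich libraries, a fit with only 1 library in some groups, the differences were -0.90 for Rab20 and 0.25 for Mff. That fit cannot decide whether their calls hold. With the 3 tissue scores Rab20 was at -0.24 and no longer passed (edgeR adjusted p = 0.601). Mff was at 0.20 and passed (edgeR adjusted p = 0.0126).

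**Figure D4:**
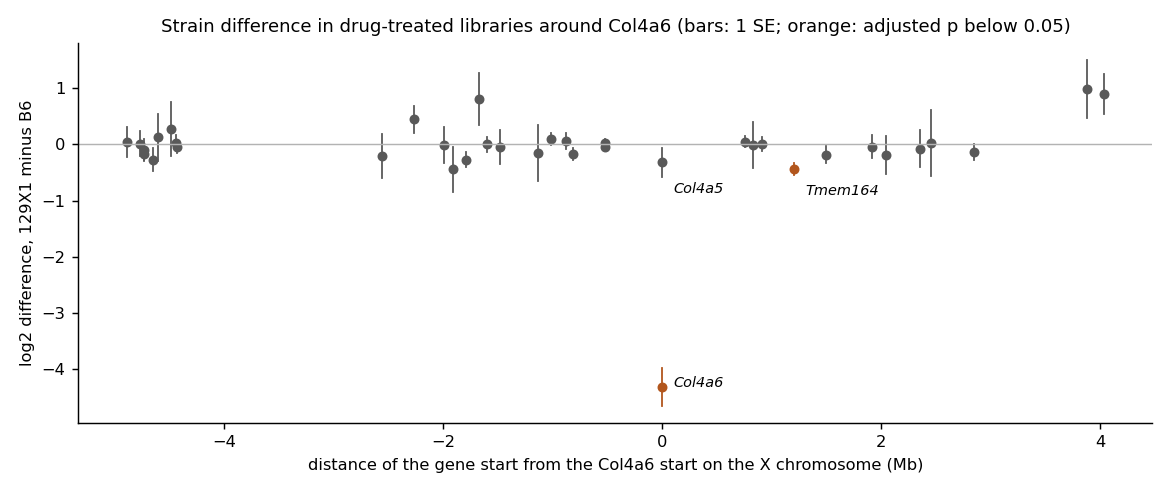
Log2 difference between 129X1 and B6 in drug-treated libraries (points, bars 1 SE) of the 37 tested genes within 5000 kb of the Col4a6 start, by distance of their starts in megabases; orange marks an edgeR adjusted p below 0.05. Col4a6 stands at -4.31 beside Col4a5 at -0.32, and Tmem164 at -0.44 is the other gene that passed.

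Of 64 tested genes that work with the collagen IV chains, 13 passed between strains under drug, 1 higher and 12 lower in 129X1. That is 20.3%, near the 21.5% of all tested genes that passed, so the total count shows nothing particular to these lists. The split by direction was less even than over all tested genes, of which 10.8% passed as higher and 10.7% as lower. What lies behind that split was not tested. Of 24 laminins, nidogens and other basement membrane partners, 0 passed as higher and 4 as lower, with a median of -0.24 against -0.02 over all tested genes. The 4 were the fibulins Fbln2, which averaged 206 ± 56.8 CPM for 129X1 and 383 ± 165 CPM for B6 (-0.90), and Fbln1 (-0.97), the calcium-binding Smoc2 (-0.65) and Hspg2 (-0.59). Of 19 tested genes of collagen IV synthesis and crosslinking, 0 passed as higher and 4 as lower (median -0.42). These were the collagen galactosyltransferase Colgalt1, which averaged 114 ± 21.9 CPM for 129X1 and 180 ± 50.5 CPM for B6 (-0.66), the peroxidasin Pxdn, which forms the sulfilimine crosslinks of the network (-0.64), the lysyl hydroxylase Plod2 (-0.93) and the prolyl hydroxylase subunit P4ha3 (-0.61). Of 11 tested receptors, the integrin subunit Itga10 was lower (-0.74) and none was higher (median -0.23).
Among 10 tested proteases and inhibitors (median -0.46), the inhibitor Timp4 averaged 46.1 ± 10.6 CPM for 129X1 and 20.9 ± 11.9 CPM for B6 (1.203, higher in 129X1), while the protease Mmp14 (-0.92) and the inhibitors Timp1 (-1.16) and Timp3 (-0.47) were lower. For each of these 13 genes libraries of the strains overlapped, and each had the same sign under vehicle. Without the Rag1-rich libraries, a fit with only 1 library in some groups, each of the 13 kept its sign. That fit holds too few libraries to decide whether their calls hold. The 12 lower genes then ran from -1.20 (Timp1) to -0.41 (Hspg2), and Timp4 was at 1.02. With the scores of skeletal muscle, adipocytes and Schwann cells 12 of the 13 no longer passed, all but Timp4 (0.75). Those 12 then ran from -0.40 (Fbln2) to 0.25 (Timp1). In fits that left out 1 library, 5 of them (Smoc2, Hspg2, P4ha3, Timp1 and Timp3) lost their call at least once, with adjusted p up to 0.122. In the treatment and regimen comparisons no gene of these lists passed with edgeR.

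**Figure D5:**
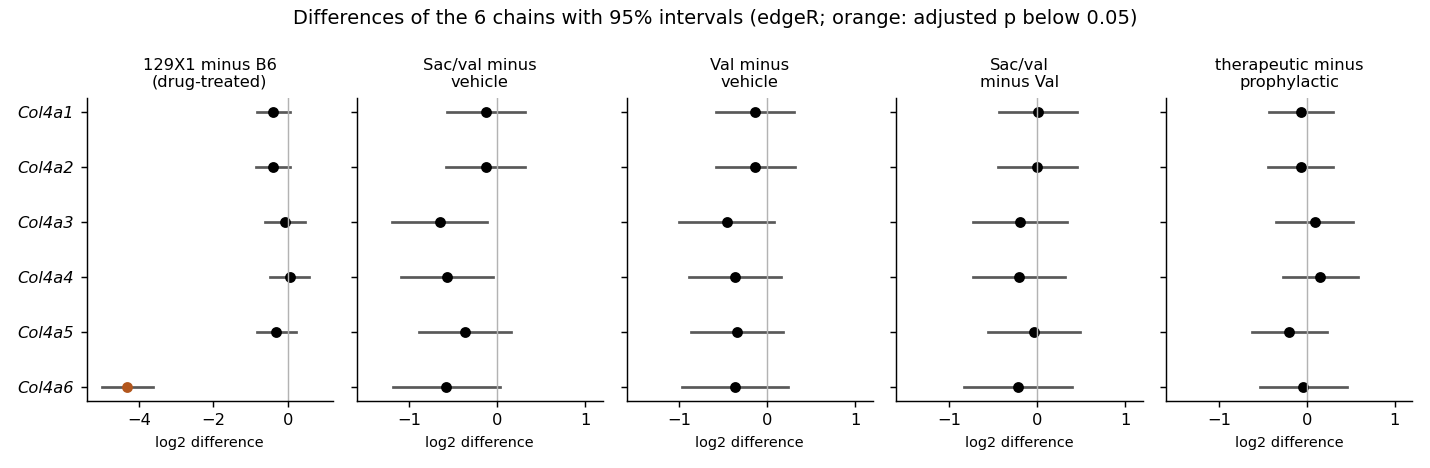
Log2 difference of each collagen IV chain with its 95% interval (edgeR, 36 libraries in 1 fit) for strain in drug-treated mice, for the 3 treatment comparisons and for regimen; orange marks an adjusted p below 0.05. Col4a6 between strains, at -4.31, is the point that passed, and the intervals of Col4a3 and Col4a4 for Sac/val minus vehicle lie below 0 without passing.

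No chain passed in any comparison of treatments. For Sac/val minus vehicle, averaged over both strains and regimens, 0 of the 6 chains and 0% of all genes passed with edgeR (293 genes had an unadjusted p under 0.05, and DESeq2 called 10 genes, none of them a chain). The minor chains of chromosome 1 had the lowest p-values among the 6. Col4a3 was at 1.65, 3.35 and 6.33 CPM (lowest, median, highest) in 12 Sac/val libraries, against 2.70, 5.06 and 11.4 CPM in 12 vehicle libraries (-0.66, 95% interval -1.20 to -0.12, edgeR unadjusted p = 0.0193, adjusted p = 1.00). Col4a4 was at 4.61, 8.86 and 16.4 CPM under Sac/val, against 6.46, 12.4 and 30.0 CPM under vehicle (-0.57, 95% interval -1.10 to -0.05, edgeR unadjusted p = 0.0344, adjusted p = 1.00). Sac/val and vehicle libraries overlapped for both genes. The highest vehicle value of both came from B6 therapeutic vehicle replicate 3, which held 39846 CPM of the thyroid gene Tg and 126 CPM of Rag1. The 6 thyroid follicle markers, of which none passed, had a median difference of -2.78 for Sac/val minus vehicle, and their score correlated with Col4a3 at r = 0.34 and with Col4a4 at r = 0.39 over 36 libraries. For the contractile smooth muscle markers, of which none passed, the median was -0.35, with r = 0.66 and 0.71. For the thymocyte markers, of which none passed, it was -1.34, with r = -0.39 and -0.56. Whether tissue content accounts for the Col4a3 and Col4a4 differences was not tested. Without B6 therapeutic vehicle replicate 3 the differences were -0.58 for Col4a3 and -0.46 for Col4a4. The remaining differences were -0.13 for Col4a1, -0.13 for Col4a2, -0.37 for Col4a5 and -0.58 for Col4a6, the last with a 95% interval of -1.19 to 0.03.

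Val minus vehicle shares its vehicle libraries with that comparison. Its differences were -0.14 (Col4a1), -0.14 (Col4a2), -0.46 (Col4a3), -0.36 (Col4a4), -0.34 (Col4a5) and -0.37 (Col4a6), and the 95% intervals of all 6 included 0. Again 0 chains and 0% of genes passed with edgeR, with 453 genes at an unadjusted p under 0.05 and 2 genes called by DESeq2. Sac/val and Val were set against each other directly, at the doses given above: differences ran from -0.22 (Col4a6, 95% interval -0.83 to 0.39) to 0.01 (Col4a1, 95% interval -0.44 to 0.45). Here 0 chains and 0% of genes passed (491 genes with an unadjusted p under 0.05, DESeq2 17).

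The treatment differences of the chromosome 1 pair were larger in B6 than in 129X1 by value. Under prophylactic Sac/val in B6, Col4a3 was at 2.16, 2.74 and 4.28 CPM, against 5.04, 8.39 and 9.44 CPM under prophylactic vehicle (-1.32, 95% interval -2.41 to -0.23). These libraries did not overlap, as for 3 of the 6 chains (Col4a1, Col4a2 and Col4a3) in a comparison where 6.12% of genes had separate libraries. Under therapeutic Sac/val in B6, Col4a3 was at 1.65, 4.99 and 5.02 CPM, against 3.72, 9.93 and 11.4 CPM under therapeutic vehicle (-1.10, and -0.82 without the library rich in Tg). In 129X1 the values for Sac/val minus vehicle were -0.55 in the prophylactic and 0.35 in the therapeutic groups. The test of the strain difference itself gave 1.11 for Col4a3 (SE 0.53, edgeR unadjusted p = 0.0439, adjusted p = 0.952), and no gene passed it (0% called, 651 with an unadjusted p under 0.05, DESeq2 5). The same test for Val gave 0.71 for Col4a3 (edgeR adjusted p = 0.652), with 0% of genes called, 960 at an unadjusted p under 0.05 and DESeq2 15. For Col4a4 these tests gave 0.74 (SE 0.51, edgeR unadjusted p = 0.162) for Sac/val and 0.60 (SE 0.51, edgeR unadjusted p = 0.252) for Val. For Col4a6 the strain terms were 0.07 (95% interval -1.17 to 1.31) for Sac/val and -0.02 (95% interval -1.17 to 1.14) for Val. Within single combinations of strain and regimen, no chain passed with edgeR or DESeq2 in any of the 12 treatment comparisons. In these, edgeR called 0% of genes and DESeq2 called 0 to 48 genes per comparison.

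No chain passed between regimens. Therapeutic minus prophylactic, averaged over strains and treatments, was -0.07 for Col4a1 (95% interval -0.43 to 0.30), -0.07 for Col4a2, 0.09 for Col4a3, 0.15 for Col4a4, -0.20 for Col4a5 (95% interval -0.63 to 0.23) and -0.04 for Col4a6 (95% interval -0.54 to 0.45). With edgeR 0 chains and 0% of genes passed (599 with an unadjusted p under 0.05, DESeq2 21). The drug differences did not depend detectably on regimen either: 0 chains and 0% of genes passed for Sac/val (156 with an unadjusted p under 0.05, DESeq2 8) and for Val (215, DESeq2 1).

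No pair ratio passed between treatments either. Sac/val minus vehicle differed by 0.01 (95% interval -0.10 to 0.12) for Col4a2/Col4a1, 0.14 (-0.06 to 0.34) for Col4a4/Col4a3 and -0.12 (-0.54 to 0.30) for Col4a6/Col4a5. Val minus vehicle differed by 0.01 (-0.10 to 0.12), 0.13 (-0.07 to 0.33) and 0.05 (-0.37 to 0.47) in the same order. Of 1582 head-to-head pairs, limma called 0% in both and in Sac/val minus Val (30, 46 and 51 pairs with an unadjusted p under 0.05). For regimen 0.253% of pairs were called, none of them a collagen IV pair. The narrowest intervals were those of Col4a2/Col4a1, whose therapeutic and prophylactic ratios differed by -0.00 (95% interval -0.09 to 0.08).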

How the data were processed

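RNA of 36 ligated left carotid arteries was sequenced as stranded polyadenylated libraries, per the labels' protocols. The deposited table holds whole-number read counts per gene symbol, which the authors made from reads handled with Trimmomatic 0.36, STAR 2.5.2b and featureCounts of Subread 1.5.0p3 on GRCm38, per the submitters' processing notes; which annotation release and which strand setting they used is not given in the sources used here. The counts went through edgeR 4.0.16 in R 4.3.3 (12 group means, TMM scaling, filterByExpr, quasi-likelihood test, Benjamini-Hochberg threshold 0.05), with 24 residual degrees of freedom and a biological coefficient of variation of 0.463. Strain under drug averaged 4 strata of drug and regimen. RPKM divided CPM by GENCODE M21 exon length. Log2 CPM ratios, made with a prior count of 2, were tested with limma 3.58.1 over 1582 pairs. These were pairs with starts within 1000 bases and, added outside that limit but included in the 1582, Col4a6/Col4a5. DESeq2 1.42.0, other filters and scalings, tissue scores or animal number as covariates, left-out libraries and a limit of 10 CPM on Rag1 were alternatives. The edgeR and limma steps were tested on simulated data. Mice are separate animals, and replicate numbers are not the animal numbers of the labels. Named genes were all 6 chains, up to 4 genes per direction of each pathway list, the 3 genes most like each chain and the 2 nearest tested genes on each side of a pair. The members and lists were chosen with earlier results of these data known. Promoter windows came from RefSeq tables of GRCm38.p6. Depth was 18962081 to 28967579 counts per library, so at 17 to 82 reads Col4a6 in 129X1 carries more counting error than in B6.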

Additional observations from a re-analysis of the deposited data

Results flagged for a closer look

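Within the 6 combinations of strain and treatment, each of 6 libraries, 54 sets of chain levels and pair ratios were searched for a library far from the others, and 3 were found, where chance gives about 1 in 20. Col4a5 was lowest in therapeutic replicate 2 of 129X1 under Sac/val, at a log2 CPM of 5.16 (35.6 CPM), while the other 5 libraries lay between 5.87 and 6.30. The log2 Col4a4/Col4a3 ratio was lowest in therapeutic replicate 1 of the same combination, at 0.97, with the others between 1.34 and 1.51. The log2 Col4a6/Col4a5 ratio was highest in therapeutic replicate 3 of B6 under vehicle, at -0.40, with the others between -1.66 and -1.21. That library held 39846 CPM of the thyroid gene Tg. Without it the ratio difference between 129X1 and B6 under vehicle was -3.46, against -3.64 with it.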

How the results depend on the processing

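The Col4a6 strain difference under drug kept its sign and passed in every alternative run, from -4.33 to -3.78, and from -4.47 to -4.17 with 1 library left out. The Col4a6/Col4a5 ratio difference under drug likewise passed in all, with -4.03 to -3.81 when 1 library was left out. Under vehicle, as a description, Col4a6 was at -3.85 and the ratio at -3.33 with the 3 tissue scores, the ratio was -3.11 without the Rag1-rich libraries, and leaving out 1 library gave -4.83 (without 129X1 therapeutic vehicle replicate 2) to -4.14 for Col4a6. Genes passing for strain under drug numbered 3998, and 1324 without the Rag1-rich libraries, a fit with fewer samples that used 3 of 4 strata. With the 3 scores Smoc2 was at 0.022 and Timp1 at 0.25, opposite in sign to the values above and not passing; the cause was not tested. Against 0 genes with edgeR, DESeq2 called 10 (Sac/val minus vehicle), 2 (Val minus vehicle), 17 (Sac/val minus Val), 21 (regimen), and 5, 15, 8, 1 and 5 for the tests of treatment by strain (Sac/val, Val), treatment by regimen (Sac/val, Val) and strain by regimen. Val minus vehicle gave 3 genes without the Rag1-rich libraries. Regimen gave 6 with the scores and 0 to 1 with 1 library left out (1 without B6 prophylactic vehicle replicate 2). No paired analysis was possible because replicate numbers follow accession order and tie no animals across groups.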
